A study of Homo sapiens with 3 samples.

Results

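Short protein-coding genes, those spanning under 5000 bases from first to last annotated base, held 1047 of the 21031 peaks of an eCLIP peak list of mouse PXR in human LS174T cells. A peak belonged to the set when its centre lay in the span of exactly 1 protein-coding gene under that length in the NCBI RefSeq table of GRCh38.p14, and in no other gene of any class, on chromosomes 1 to 22 or X. The set made up 6.20% (Wilson 95% interval 5.85 to 6.57%) of the 16885 peaks that lay in 1 coding gene only, and 5.01% of the 20907 peaks on these chromosomes. The 1047 peaks, 551 of the plus and 496 of the minus strand, lay in 605 genes.

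eCLIP sequences the RNA fragments that UV light has joined to a protein and that are then pulled down with it. The cells were LS174T, an established line from a human colon adenocarcinoma, and all 3 libraries came from cells that had carried transfected mouse Pxr with an HA tag for 24 h, next to whatever receptor the line makes itself. The labels give 1 input and 2 replicates of the PXR immunoprecipitate, and no library without the construct was analysed here. Antibodies to PXR and to HA and a control IgG are listed in the protocol, without saying which library each made. All values come from 1 peak list with no column per library. They therefore have no replicate error, no test was made, and every interval covers counting error only.

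PXR, the product of NR1I2, is a nuclear receptor that binds drugs, bile acids and other foreign compounds and switches on genes of detoxification in liver and gut. Many short human genes belong to families that a dividing cell reads at a high rate, such as those of ribosomal proteins, histones and respiratory chain subunits, while others, such as the olfactory receptors, are silent in most cells. Many of them have few introns or none, although exons were not used here.

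Each peak carries the deposited fold, in which the summit's reads plus 1 are divided by the background plus 1. A whole number of summit reads that met both the fold and the deposited p-value was found in all 1047 peaks. The background was the number of reads in the surrounding 10 kb on the same strand, scaled to 200 bases, in 1037 of them. In 7 peaks, of 4 to 11 reads, it was a level common to the strand: those of LGALS1, LOC100996696, MT1HL1, RASSF7, RPEL1, SLC32A1 and TMEM271. In ADM, HIRIP3 and SERTAD1 the background that goes with the 6 reads found was neither of these. Their number of reads is therefore uncertain. The fold therefore sets a summit against the 10 kb around it, summit included, and the whole of a short gene lies within that window. The sources used here do not say whether the input library served as a control, so the fold cannot be read as enrichment over input. RNA levels were not measured here, so depth at a summit cannot be told apart from abundance of the RNA.

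Of the 825 peaks on a known gene strand, 10 (1.21%, 0.660 to 2.22%) began within 10 bases of the annotated start of their gene, against 0.573% (0.457 to 0.718%) in longer genes. The intervals overlap, and 10 bases are a larger part of a short gene. The 10 peaks include some of the deepest, and the starts of 8 of their genes are shown first. The sequences are RefSeq's (GRCh38.p14), read along the gene, each with 60 bases before the start and 30 from the start on. Among the ribosomal protein genes, which code for the protein parts of the ribosome, peaks began 5 bases after the start in RPLP1 (526 reads, fold 32.3), 4 in RPS16 (223 reads, fold 13.3), 5 in RPS12 (111 reads, fold 15.1) and 10 in RPLP2 (60 reads, fold 4.35). Capitals mark the unbroken run of pyrimidines from the first base of the gene, the feature known as a terminal oligopyrimidine start, which was 8 to 13 bases long in these genes.
RPLP1, chr15:69452758-69452847, plus strand: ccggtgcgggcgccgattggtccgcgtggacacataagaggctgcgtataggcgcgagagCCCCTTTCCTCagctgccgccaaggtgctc
RPS16, chr19:39435920-39436009, minus strand: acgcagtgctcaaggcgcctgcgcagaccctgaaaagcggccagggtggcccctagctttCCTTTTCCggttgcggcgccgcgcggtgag
RPS12, chr6:132814509-132814598, plus strand: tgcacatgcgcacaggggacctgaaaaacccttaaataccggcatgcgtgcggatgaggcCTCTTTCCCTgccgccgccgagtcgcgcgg
RPLP2, chr11:809907-809996, plus strand: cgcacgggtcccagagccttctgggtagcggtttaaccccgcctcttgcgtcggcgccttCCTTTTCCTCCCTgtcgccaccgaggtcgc

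Of the 6 other genes with such a peak, the 4 with the deepest ones are shown in the same way. They were PFN1, the actin-binding protein profilin (436 reads, beginning at the first base), S100P, a calcium-binding protein of epithelial cells (338 reads, beginning 8 bases after it), FTL, the ferritin light chain (245 reads, 6 bases after it), and CCDC85B, whose peak of 60 reads began at the first base of the gene. No start with C and 4 further pyrimidines was found in these windows, and capitals mark TATAAA, here in S100P alone, 28 bases before the start.
PFN1, chr17:4948501-4948590, minus strand: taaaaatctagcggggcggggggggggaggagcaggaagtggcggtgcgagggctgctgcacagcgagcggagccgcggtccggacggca
S100P, chr4:6693818-6693907, plus strand: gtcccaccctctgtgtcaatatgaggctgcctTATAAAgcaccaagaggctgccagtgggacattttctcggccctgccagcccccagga
FTL, chr19:48965249-48965338, plus strand: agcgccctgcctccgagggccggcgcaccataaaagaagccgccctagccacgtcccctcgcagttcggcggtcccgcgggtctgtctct
CCDC85B, chr11:65890613-65890702, plus strand: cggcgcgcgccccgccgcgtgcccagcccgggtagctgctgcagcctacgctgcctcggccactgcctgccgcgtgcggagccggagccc

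The last set shows genes with TATAAA, again in capitals. H1-4, a linker histone, and the metallothioneins MT2A and MT1X, small proteins that bind zinc and copper, held it 29, 29 and 30 bases before the start. The peak of H1-4 (379 reads) began 57 bases after the start, and the first peak of MT2A (41 reads) 19 bases after it. In MT1X no peak began closer than 697 bases.
H1-4, chr6:26156269-26156358, plus strand: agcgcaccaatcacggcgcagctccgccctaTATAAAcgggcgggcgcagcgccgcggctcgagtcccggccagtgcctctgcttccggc
MT2A, chr16:56608524-56608613, plus strand: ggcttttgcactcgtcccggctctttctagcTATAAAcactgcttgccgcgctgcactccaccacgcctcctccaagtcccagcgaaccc
MT1X, chr16:56682410-56682499, plus strand: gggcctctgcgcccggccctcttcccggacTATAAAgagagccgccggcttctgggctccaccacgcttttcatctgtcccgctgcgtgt

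These letters were counted over all promoters in the RefSeq table, which held a window for 494 of the 605 genes with a member peak and for 15811 coding genes. The start in the window was the edge of the gene span in 469 of the 494 and in 13256 of the 15811. In the rest the start read here was not the annotated start used for the peaks, and this share differed between the groups. A start of C followed by 4 or more pyrimidines, read on the strand of the gene, was present in 39 of 494 genes with a peak (7.89%, Wilson interval 5.83 to 10.6%), in 2.83% of the 1835 short genes without one and in 4.6% of all coding genes. Without ribosomal protein genes it was present in 21 of 467 genes with a peak (4.5%, 2.96 to 6.78%) and in 2.78% (2.12 to 3.64%) of short genes without one. Of the 27 ribosomal protein genes with a peak and a window, 18 (66.7%) had it, against 1 of 33 histone genes. TATAAA on the strand of the gene, in the 50 bases before the start, was present in 10.3% of genes with a peak, in 11.8% of short genes without one and in 3.90% of all coding genes, and the intervals of the first pair overlap (7.94 to 13.3% and 10.4 to 13.4%). Among histone genes with a peak, 19 of 33 (57.6%) had it. CCAAT on either strand of the 300-base window was present in 46.0% of genes with a peak, in 37.4% of short genes without one, in 36.3% of all coding genes and in 28 of 33 histone genes (84.8%). CTCTTTCC on either strand, which can overlap a pyrimidine start as it does in RPS12, was present in 3.44%, 3.54% and 3.16% of these first 3 groups. A match is a description of these letters, not a binding site.

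A smaller share of short genes than of longer ones held a peak, and the median member peak was deeper than that of longer genes. Of the 3160 coding genes under 5000 bases, 683 lay wholly inside other genes, and of the other 2477, 605 held a member peak (24.4%, Wilson interval 22.8 to 26.2%). By the same rule 6568 of 15813 longer coding genes held a peak (41.5%, 40.8 to 42.3%). Among the 2555 short genes with no member peak, 138 held a peak centre that they shared with another gene. The absence of a peak does not show that an RNA was not bound, since a gene needs reads to give one.

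The depth at the summit ranged from 4 to 4622 reads, with a median of 30 (95% interval 28 to 32) and quartiles of 18 and 56. In longer coding genes the median was 21 reads (21 to 22), with quartiles of 14 and 34. A single peak of 30 reads has an exact Poisson interval of 20.2 to 42.8, and one of 21 reads an interval of 13.0 to 32.1. These intervals overlap, but they concern single peaks and not the medians of the groups. Of the member peaks, 52 had under 10 reads and 44 had over 200. The 52 include ADM, HIRIP3 and SERTAD1, whose number of reads is uncertain. The lowest −log10 q was 2.04, and the median 13.1 against 9.03 in longer genes.

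The fold ranged from 2.51 to 48.7, with a median of 6.36 (6.19 to 6.52) and quartiles of 5.00 and 8.89, against a median of 5.88 (5.85 to 5.92) in longer genes. The difference of 0.481 (0.271 to 0.671) depended on which peaks and genes were taken. With a limit of 3000 bases it was 1.12, and with one of 10000 bases −0.00265 (−0.15 to 0.118). It was 0.167 (−0.231 to 0.519) among peaks with a −log10 q at or above the median of the list, and 0.299 (0.0261 to 0.519) without ribosomal protein and histone genes. The peaks were also wider, with a median of 325 bases against 264. Peaks at most 2 bases wider than 1 read extended to 200 bases numbered 83 (7.93%), against 18.1% in longer genes.

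The fold was highest in the shortest genes. In genes under 1000 bases, 49 peaks in 47 genes had a median fold of 14 (10.3 to 17.1), 52 reads and a width of 540 bases, and a median of 45.9% of the reads in the 10 kb lay under the summit. Most of these 47 genes were replication-dependent histones, a family with a median fold of 16.3. Length and family therefore cannot be told apart in this class. Among its other genes the fold of the deepest peak ran from 4.73 in UFSP1 to 27.8 in MT2A. From 1000 to 2000 bases the median fold was 7.60, from 2000 to 3000 bases 6.35, from 3000 to 4000 bases 6.31 and from 4000 to 5000 bases 5.61. Beyond the limit it rose slightly, from 5.60 (5.45 to 5.75) from 5000 to 10000 bases to 6.06 (5.98 to 6.12) in genes of 100000 bases or more. The share of genes with a peak ran the other way, from 12.7% under 1000 bases and 17.5% from 1000 to 2000 bases to 32.1% from 4000 to 5000 bases, and 43.8% in the longest class. The background window is wider than these genes, so how much of the fold comes from the RNA and how much from the empty sequence around a short gene cannot be told apart.

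**Figure D1:**
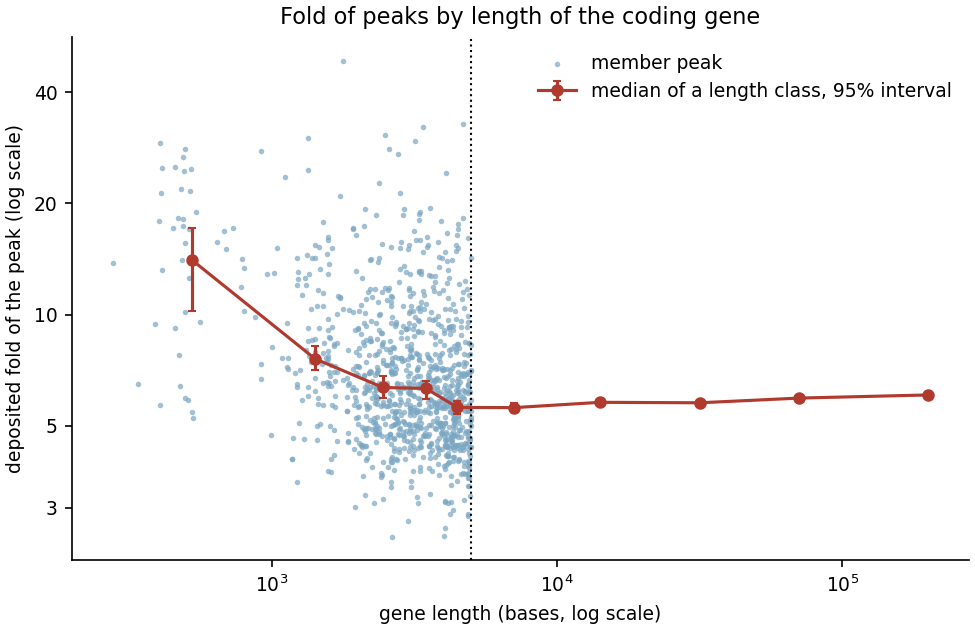
Deposited fold of each of the 1047 member peaks against the length of its gene (points), with the median fold of each length class over all coding genes and its 95% order-statistic interval (line), both axes on a log scale; the dotted line marks 5000 bases. The median falls from 14 under 1000 bases, where most genes with a peak are histones, to 5.61 just below the limit. It then rises slightly, to 6.06 in genes of 100000 bases or more.

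The limit itself cut through a smooth range. The 3 genes with a peak nearest below it were ZNF296 (4979 bases), with 1 peak of 9 reads at a fold of 5.49, PRDX2 (4978 bases), a peroxidase, with peaks of 118 reads (fold 14.2) and 45 reads (fold 5.87), and DNAJB9 (4977 bases), a chaperone partner, with peaks of 21 and 11 reads. The 3 nearest above it were CDKN1B (5002 bases), with 72 reads at a fold of 8.35, PLA2G2A (5004 bases), with 15 reads, and RPL21 (5011 bases), with peaks of 21 and 18 reads.

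Peaks in short genes lay almost without exception on the strand of the gene. Gene strand was known for 829 member peaks, and 825 of them (99.5%, Wilson interval 98.8 to 99.8%) were on it, against 98.3% (98.1 to 98.5%) of 13140 peaks in longer genes. The 4 exceptions included the deepest member peak of all. It lay in the span of LOC124901446, a gene model on the minus strand of chromosome 6, at chr6:157380813-157381012 on the plus strand. It was 200 bases wide and held 4622 reads (Poisson interval 4490 to 4760) of the 4697 in its 10 kb, at a fold of 48.7. A peak of that width holds reads that start at nearly the same position, and a part of PCR copies in them was not tested.

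The next exception was SOX12, which codes for a transcription factor. Its minus-strand peak at chr20:326368-326571 was 204 bases wide and held 345 reads (310 to 383) at a fold of 32.9, while its plus-strand peaks, 1512 and 914 bases wide, held 48 and 57 reads. The other exceptions were shallow, with 14 reads in HEXIM1, an inhibitor of the elongation factor P-TEFb, and 7 in LOC124901225. In HEXIM1 the strand of the gene carried peaks of 17 and 18 reads. The deep reads in LOC124901446 and SOX12 thus lay on the strand opposite to the annotated RNA.

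Along the gene, summits were spread more evenly than in longer genes, with the highest shares at the ends. The median relative position was 0.532 (0 is the start and 1 the end of the gene) with quartiles of 0.205 and 0.840, against 0.534 with quartiles of 0.0458 and 0.896 in longer genes. When genes were cut into 10 equal parts, the first held 107 of 825 summits (13.0%) and the last 154 (18.7%), against 28.6% and 24.6% in longer genes. The fourth of the 10 parts held the fewest, 4.85%. No summit lay closer than 96 bases to a start, so the opening stretch of the shortest genes could hold few summits.

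**Figure D2:**
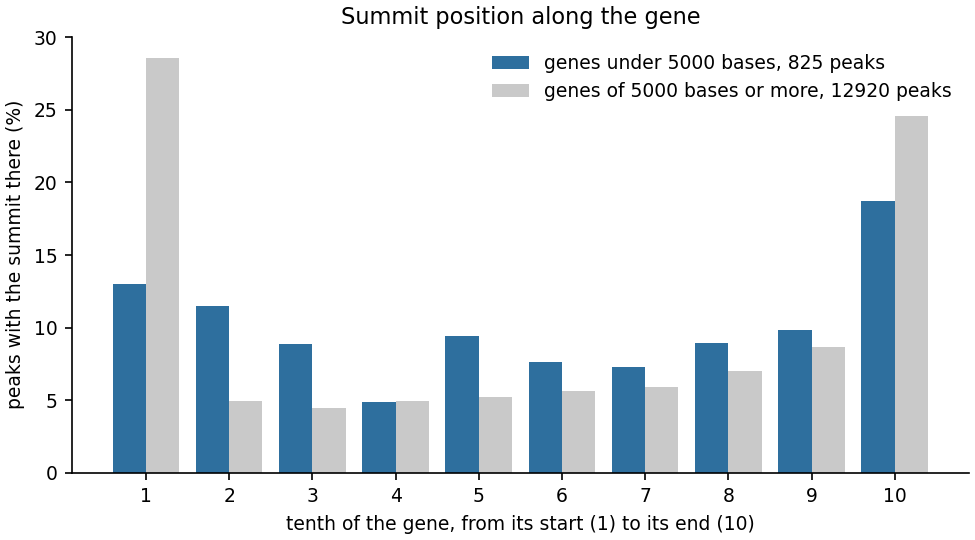
Share of summits in each of 10 equal parts of the gene, from its start (1) to its end (10), for 825 member peaks on the strand of their gene and for 12920 such peaks in longer coding genes. Short genes have 13.0% in the first part and 18.7% in the last, against 28.6% and 24.6% in longer genes.

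In bases, 237 summits (28.7%) lay within 500 bases of the start and 250 (30.3%) within 500 bases of the end, against 19.4% and 7.71% in longer genes, where such windows are a smaller part of the gene. The upstream edge of a peak stopped sharply at the gene start. Within 50 bases after it or before it 60 peaks began (7.27%), and among the 825 peaks on a known gene strand 1 began before the annotated start, that of UBE2M, a NEDD8-conjugating enzyme, by 124 bases. At the downstream edge 164 peaks (19.9%) ran past the annotated end, by a median of 73.5 bases, against 3.12% in longer genes. Reads were taken as extended to 200 bases, the width of the narrowest peak, so this edge can lie past the last base read. The upstream and downstream edges are therefore not measured alike. How much of the overrun comes from the extension was not tested. These shares are over all peaks, and fewer peaks of longer genes lay near enough to the end to pass it. Of the 164, 29 were peaks of replication-dependent histone genes. All but 1 of them ended within 200 bases of the gene end, the exception being the histone gene H2AC25 at 285 bases. The rule of the set bounds this distance. A peak's centre had to lie in the gene, so less of the peak could lie past the end than before it.

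Some genes had peaks at both ends. Of 492 genes with a member peak on their strand, 239 had more than 1 such peak and so could have them at both ends. Over all 492, 68 held summits in both the first 20% and the last 20% of their length, 130 in the first but not the last, 153 in the last but not the first, and 141 in neither. S100P had 2 peaks, one of 338 reads (303 to 376) at the start and one of 400 reads (362 to 441) whose summit was 48 bases from the end. GDF15, a stress-induced secreted factor, had 359 reads near the start and 415 near the end. PFN1 had 436 reads at the start, 218 in the middle and 248 at the end. FTL had 245, 144, 66 and 282 reads from start to end, so its end peaks were the deepest and the inner ones the shallowest.

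Of the 605 genes, 297 held 1 peak, 200 held 2, 87 held 3, 16 held 4 and 5 held 5. The 5 genes with most were OAZ1, HSPA8, TUFM, CYC1 and PSMB6. In OAZ1, the antizyme that controls polyamine synthesis through a ribosomal frameshift, the peaks held 150, 173, 74, 48 and 175 reads from start to end. HSPA8, the constitutive HSC70 chaperone, had a flat profile of 75, 78, 107, 81 and 109 reads. TUFM, the mitochondrial elongation factor Tu, ran from 95 reads near the start through 74, 57 and 79 to 94 near the end. CYC1, a subunit of respiratory complex III, and PSMB6, a catalytic proteasome subunit, were shallower, at 22 to 61 and 17 to 30 reads. The folds within OAZ1, from 2.52 to 9.08, differed mostly with the summit reads, since all 5 peaks share nearly the same 10 kb background.

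**Figure D3:**
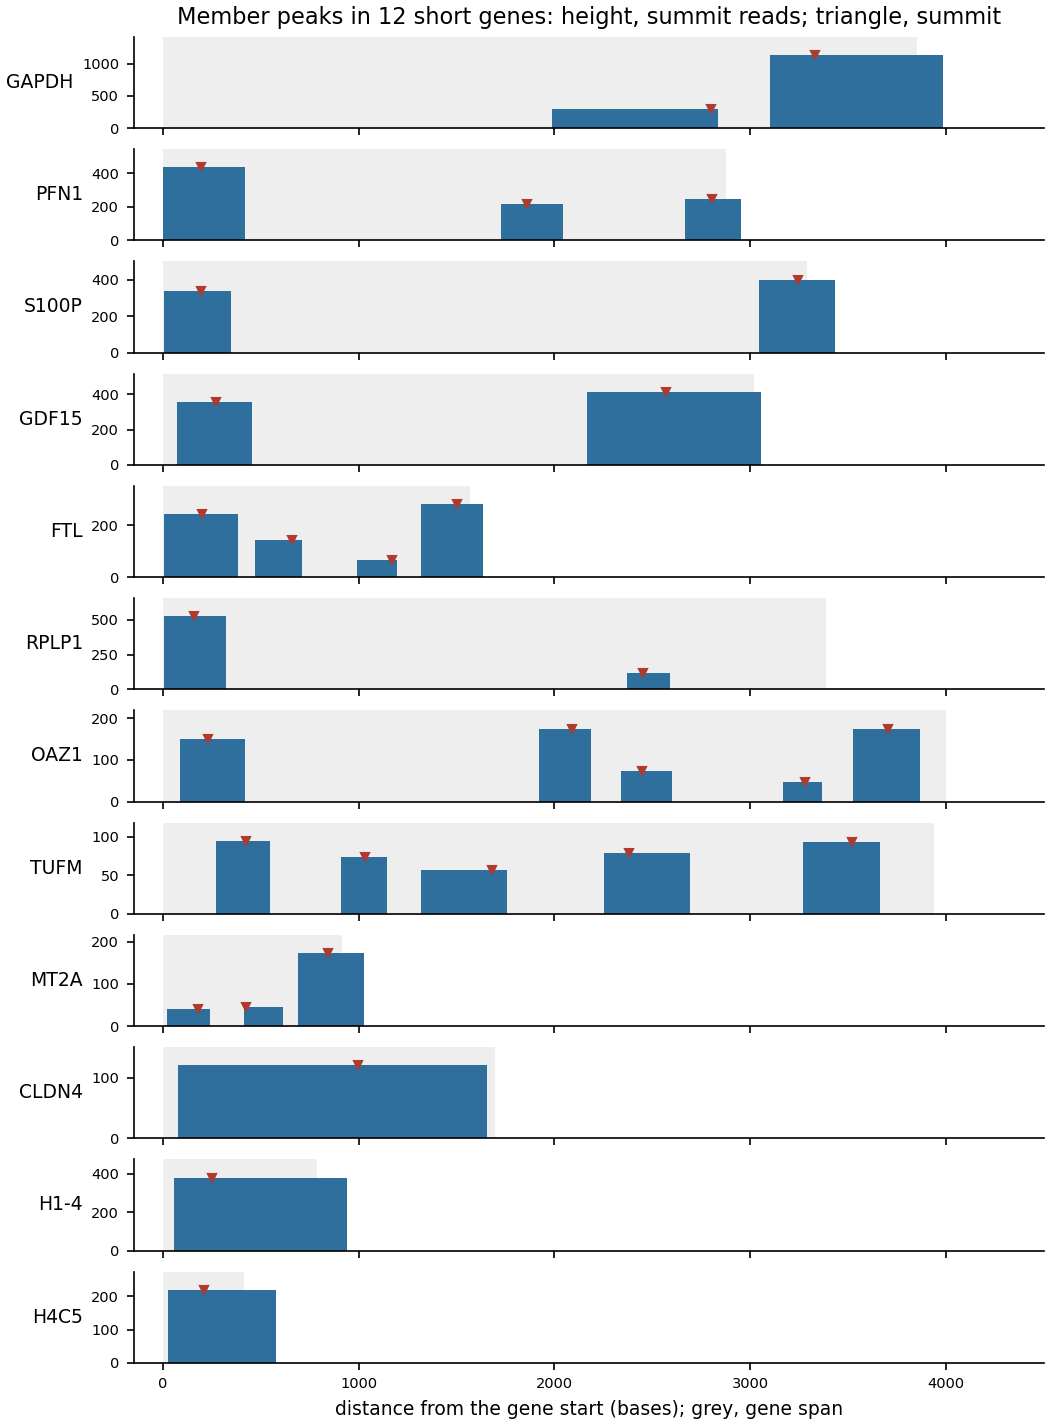
Member peaks along 12 short genes, drawn to the same scale in bases from the gene start; grey is the span of the gene, the width of a bar is the peak, its height the summit reads (linear axis, scaled per gene) and the triangle the summit. PFN1, S100P and FTL have a peak at each end, OAZ1 and TUFM have 5 peaks, and in CLDN4, H1-4 and H4C5 a single peak covers most of the gene.

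Peaks covered a median of 22.3% of the bases of a gene. In 115 genes (19.0%) they covered 50% or more, and in 47 genes (7.77%) 80% or more; the median length of the latter was 542 bases. CCDC85B, a gene of 963 bases, was covered over its whole length by 1 peak. Most genes with 80% or more were histones. The others included the junction proteins CLDN3 and CLDN4, SFN (the 14-3-3 sigma protein of epithelia), the AP-1 subunits JUNB and JUND, DDIT4, ID1, HES4, HES6, ATF4, PCBP1 and TUBB4B.

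The replication-dependent histone genes, which code for the nucleosome proteins made in S phase from RNAs with a stem-loop in place of a poly(A) tail, had the highest median fold of the lists with over 1 peak. Of 58 such genes, 36 held a peak (62.1%, Wilson interval 49.2 to 73.4%, against the 24.4% of all short genes), and each held exactly 1. The median fold was 16.3, from 5.25 to 29.1, and the median depth 68.5 reads, from 7 in H3C6 to 379 in H1-4. By class, 13 of 14 H2A genes, 8 of 13 H2B genes, 7 of 13 H4 genes, 4 of 12 H3 genes and 4 of 6 H1 genes held a peak. The median fold was 15.6 in H2A, 17.6 in H2B and 18.0 in H4, and lower in H1 at 13.0 and H3 at 11.5, over 4 genes each.

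After H1-4 the deepest histone peaks were those of H1-2 (231 reads, fold 17.1), H4C5 (220 reads, fold 24.9) and H3C10 (210 reads, fold 17.3). H4C3 had the highest fold, 29.1, with 170 reads, and H2AC20 had 28.0 with 128 reads. The peaks covered a median of 87.0% of the gene, and 29 of the 33 on a known strand ran past the annotated end, by a median of 141 bases. Extension of reads to 200 bases may add to both values, by an amount that was not tested. Genes of 1 class can be close in sequence, which was not measured here, so reads could be split between them or assigned to a wrong copy.

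Almost all short genes of cytosolic ribosomal proteins held a peak. Of 38 short ones, 35 held a peak (92.1%, 79.2 to 97.3%), all 22 of the large subunit and 13 of 16 of the small one. Their 79 peaks had a median of 75 reads and a median fold of 7.80. The deepest were RPLP1 with 526 reads (482 to 573), RPS2 with 504 (461 to 550), RPL8 with 335 and RPLP2 with 270. At the low end RPS28 had 11 reads, RPS27 16 and RPL7 18, so depth within the family differed by over an order of magnitude.

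Where in the gene the peaks lay differed between ribosomal protein genes. In RPLP1 the start held 526 of the 767 reads of the 10 kb. In RPS16 the start held 223 reads and the end 255, with 99 between. In RPLP2 the peak at the start held 60 reads, the next, 276 bases from the start, 270, and the last, near the end, 193. Over both subunits, of 57 peaks on a known strand 16 had the summit in the first 20% of the gene and 16 in the last. Ribosomal protein genes have many processed pseudogenes, to which reads could also align.

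Short genes of mitochondrial proteins also held a peak in most cases, at lower median depth than the cytosolic ribosomal protein genes. Mitochondrial ribosomal protein genes held a peak in 16 of 19 cases (84.2%, 62.4 to 94.5%), with a median of 26.5 reads and a fold of 8.44. MRPL12 was deepest at 126 reads, with its summit 77 bases from the end, followed by MRPL41 (50), MRPS34 (48) and MRPS12 (46). Respiratory chain subunits, the nuclear-encoded parts of oxidative phosphorylation, held one in 14 of 17 (82.4%, 59.0 to 93.8%), with a median fold of 10.2 and 45 reads. COX8A had a peak of 130 reads near the start and one of 126 near the end, both at a fold of 17.1. ATP5F1D had 102, COX5B 99 at a fold of 18.6 near the end, and COX7C 67. UQCRHL, at 276 bases the shortest gene with a peak, is a near-copy of UQCRH and had 25 reads.

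Immediate early and stress genes, many of which respond quickly to a stimulus and have short-lived RNAs, held a peak in 24 of 26 cases (92.3%, 75.9 to 97.9%). CEBPB and IER3 held none, and the CEBPB span held a peak centre shared with another gene. Their 43 peaks were broad, with a median width of 519 bases, and had a low median fold of 5.45 at 42 reads. DDIT4, an inhibitor of mTORC1, had 266 reads (235 to 300) in 1349 bases. JUND had 184 reads in 1652 bases, JUN 121 in 1810 bases and ID1, a dominant-negative helix-loop-helix factor, 167 in 613 bases. FOS and IER2 had 83 reads each, EGR1 4 peaks of up to 25 reads, and GADD45B 8 reads. ATF4, the transcription factor of the integrated stress response, had 3 peaks of 145, 67 and 123 reads.

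The metallothioneins held a few peaks of high fold. Of 11 genes 6 held a peak (54.5%, 28.0 to 78.7%), and their 13 peaks had a median fold of 9.22, from 6.03 to 30.1, and 46 reads. MT1E had 187 reads (161 to 216) at a fold of 30.1, MT2A 173 (148 to 201) at 27.8, MT1G 138 at 24.6 and MT1X 87 at 21. MT1H had 23 reads and MT1F 10. The deepest MT2A summit lay 68 bases from the end and that of MT1X 51 bases from it. MT1A, MT1B, MT1M, MT3 and MT4 held none. The genes lie side by side on chromosome 16 and are close in sequence, so reads may be shared among them.

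The cytoskeleton supplied the deepest peaks after that of LOC124901446 and of GAPDH. In the list of actin, tubulin and small cytoskeletal genes 10 of 13 held a peak (76.9%, 49.7 to 91.8%), with a median of 144 reads. ACTB, beta-actin, had 986 reads (925 to 1050) in 1454 bases at a fold of 10.7, and a second peak of 452. ACTG1, gamma-actin, had 578 and 489 reads. PFN1 had 436 and the actin-severing protein CFL1 385. TMSB4X, thymosin beta 4, which holds actin monomers, had 4 peaks, of which the last, 128 bases from the end, held 131 reads at a fold of 19.3 and the others 29 to 41. TUBA1A, TUBB2A and TUBB2B held none. In 10 kb around ACTB and ACTG1 lay 4567 and 3167 reads, which together with those around LOC124901446 and GAPDH are the highest here, so their folds were moderate at great depth.

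The label of a colon line was set against marker genes: most short epithelial markers had peaks, and the few short hepatocyte, blood and endothelial markers nearly none. Of 12 short epithelial markers, some of which stand in other lists too, 9 held a peak (75%, 46.8 to 91.1%), with a median of 144 reads. KRT18, a keratin of simple epithelia, had peaks of 481 (439 to 526), 145, 144 and 122 reads. S100P reached 400, CLDN7 338, KRT19 288, S100A14 169, CLDN4 121 and CLDN3 80. The trefoil factors TFF3 and TFF1, secreted by goblet and surface mucous cells, had 78 and 19 reads, and TFF2, GUCA2A and REG1A no peak. No peak lay in any of 6 short hepatocyte markers (0%, up to 39.0%) or in CLDN5, an endothelial marker. Of 15 blood and immune markers 1 held a peak, IL32, with 56 reads 59 bases from the end of the gene. No short neuronal marker could be examined and no muscle marker was listed. CDK5R2 and MYOD1, known from neurons and muscle and in no marker list, held narrow peaks of 76 and 63 reads.

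Families that most cells keep silent gave no peak. Olfactory receptors had none in 173 short genes (up to 2.17%), keratin-associated proteins of hair none in 71 (up to 5.13%) and beta defensins none in 15 (up to 20.4%). Claudins held a peak in 3 of 12 and keratins in 3 of 11 cases, close to the 24.4% of all short genes, with the peaks in the epithelial members named above and in KRT10. S100 proteins held one in 4 of 8 cases (50%, 21.5 to 78.5%), with 72 reads in S100A11 and 9 in S100A4 next to the deeper S100P and S100A14. Both short genes of Sm and LSM proteins, which bind small nuclear RNAs, held one, SNRPD2 with 55 reads and LSM10 with 11. All 6 ubiquitin and ubiquitin-like genes held one, led by ISG15 (211 reads, fold 15.1), FAU (140) and UBB (121).

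**Figure D4:**
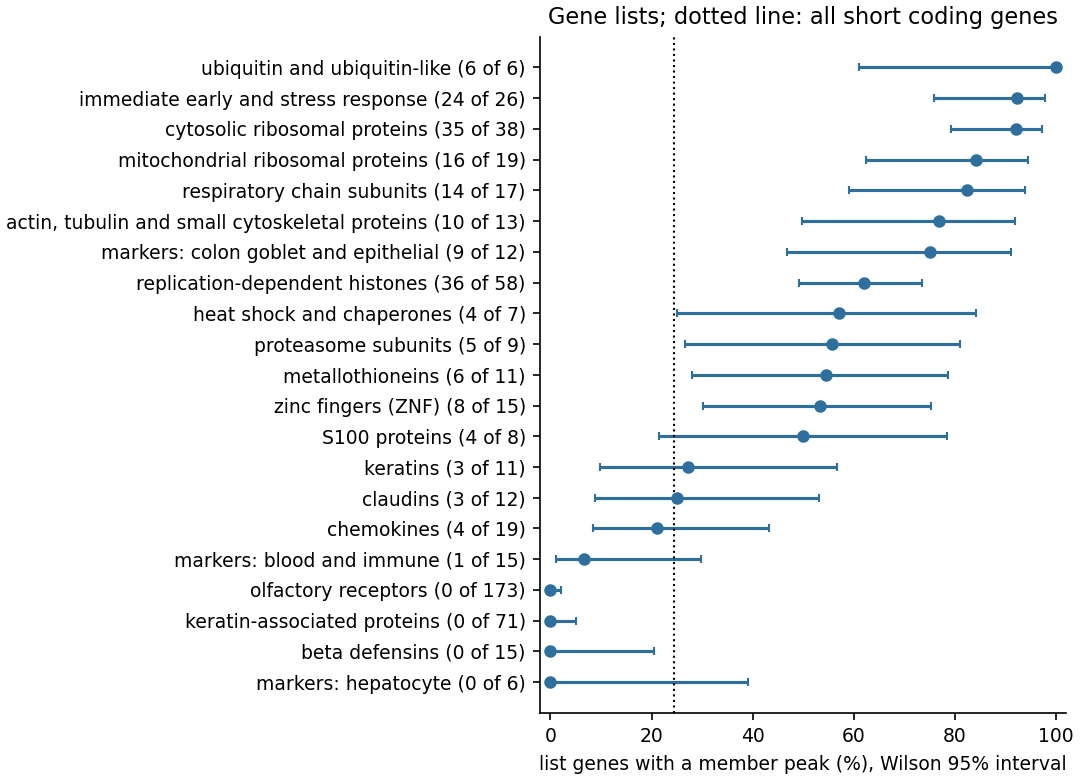
Share of the short coding genes of each list that held a member peak (points) with its Wilson 95% interval, beside the 24.4% of all short coding genes (dotted line); the counts stand with each name and lists of under 3 genes are left out. Ubiquitin, stress, ribosomal and mitochondrial genes lie between 82.4 and 100%, and olfactory receptors, keratin-associated proteins, beta defensins and hepatocyte markers at 0.

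Most genes with a peak were in none of the lists: 425 genes with 714 peaks, against 180 listed genes with 333. GAPDH, the glycolytic enzyme, had 1137 reads (1070 to 1210) at a fold of 14.3 in a peak that ran from 3103 bases after the start to 131 bases past the end, and a second peak of 291. CKB, the brain-type creatine kinase, had 1 peak of 493 reads (450 to 539) at a fold of 29.5, and 62.6% of the reads of its 10 kb lay under that summit. GSTP1, a glutathione transferase, reached 289 reads 59 bases from its end, and FTL 282. PPDPF had 182 reads, and ASCL2, a transcription factor of intestinal stem cells, peaks of 178 and 83 reads.

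A few peaks stood alone in their 10 kb. In 6 of 1037 peaks (0.579%) 90% or more of the reads in the window lay under the summit, close to the 0.608% of longer genes, whereas the median was 17.2% here and 16.8% there. Besides LOC124901446 these were CDK5R2 (76 of 76 reads, fold 30.6), MYOD1 (63 of 64, fold 28.1), NKX2-3 (30 of 30), EIF5AL1 (27 of 28) and HNRNPCL1 (16 of 16). CDK5R2 is known as a neuronal kinase activator and MYOD1 as a master gene of muscle, and their peaks were 205 and 204 bases wide, near the length of 1 extended read. The strand of MYOD1 was not known here. EIF5AL1 and HNRNPCL1 are copies of the widely read genes EIF5A and HNRNPC, so their reads may come from RNA of those genes.

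**Figure D5:**
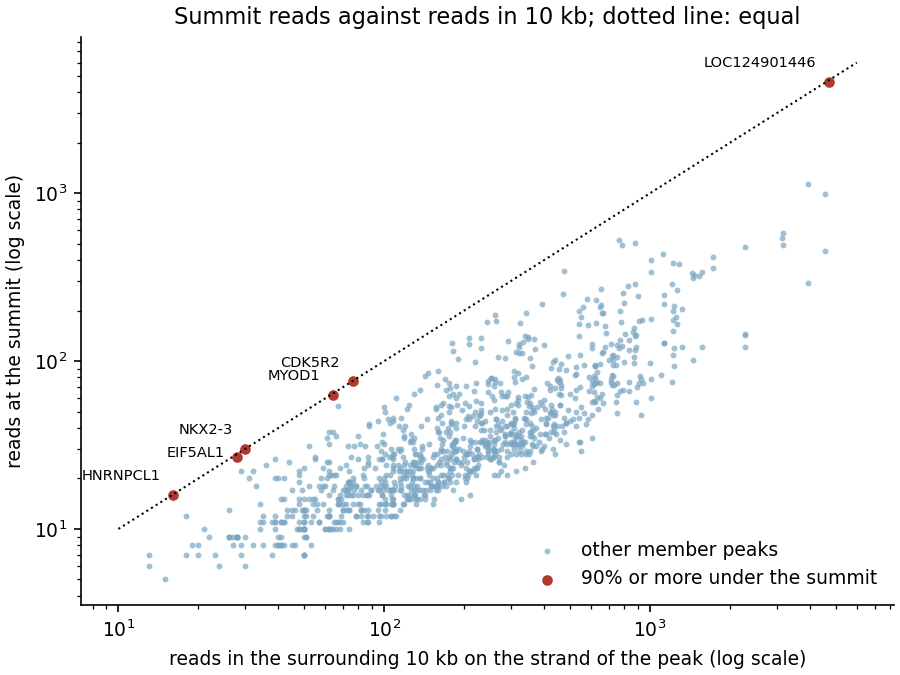
Reads at the summit against reads in the surrounding 10 kb on the same strand for 1037 member peaks, both on log scales; the dotted line marks equality, and the 6 labelled red points have 90% or more of the reads under the summit. Most peaks lie well below the line, and LOC124901446 stands apart at 4622 of 4697 reads.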

How the data were processed

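The data are 1 deposited list of eCLIP peaks for 3 libraries, which the labels describe as 1 input and 2 immunoprecipitate replicates. Per the submitters' processing notes, cutadapt, BWA and MACS2 were used with the hg38 build, with no version or setting given. None of these sources says whether the replicates were pooled. The deposited score is 10 times the −log10 q without its decimals (checked in 21031 peaks). The authors' fold (a ratio), −log10 p and −log10 q were used as deposited, as was the summit position. The total depth of the libraries is not given.

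Reads at the summit (k) and background (b) were solved from fold = (k + 1)/(b + 1) and the Poisson p-value. The deposited −log10 p was met by a whole k in 21028 of 21031 peaks (tolerance 0.0001 plus 1e-05 of the value). The background was a whole count in 10 kb within 0.05, or the common level, in 1044 of 1047 members, so the reads of the others are uncertain. That level was 0.286 (plus strand) and 0.236 (minus strand) reads in 200 bases. Shares have Wilson, reads exact Poisson and medians order-statistic intervals at 95%, and PCR copies are not independent molecules. Genes were RefSeq spans of GRCh38.p14 (hg38 coordinates), and the promoter table gave gene strand for 494 of 605 genes. Python 3.11.15, pandas 2.3.3 and scipy 1.17.1 were used, and the code was tested on simulated data.

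Named by rule were the 10 peaks of highest fold and of most reads, the 5 genes with most peaks, the 4 deepest genes of each of 24 lists, up to 5 peaks on the opposite strand, the 3 genes on each side of the length limit and the 5 shortest genes; a few of these are not reported here. Other genes (those with peaks at the start or both ends, alone in 10 kb, in no list or covered by peaks) were named after their values were seen. The members and lists were chosen with earlier results of these data known.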

Additional observations from a re-analysis of the deposited data

How the results depend on the processing

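No paired analysis was possible because 1 peak list stands for all libraries and carries no value per replicate, and for the same reason no replicate could be left out. The share of peaks on the gene strand and the median relative position kept their values under every alternative run. With only peaks whose −log10 q was at or above the median of the list, 694 members remained, with a median fold of 7.65, 44 reads, a fold difference from longer genes of 0.167, a read difference of 12 against 9, and 17.3% of short genes with a peak. With genes under 3000 bases there were 484 members, a median fold of 7.0, a difference of 1.12 and 20.2% of genes. With genes under 10000 bases there were 2393 members, a median fold of 5.91, a difference of −0.00265 and 28.5% of genes, since longer genes of lower fold then joined. Without ribosomal protein and histone genes the median fold was 6.18 and the share 22.4%. With the deepest peak of each gene, an alternative chosen after seeing the data, the median fold was 7.38. Depth limits the members under 10 reads (52 as worked out, a few of them uncertain), and gene spans without exons limit every statement on position.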

Other observations

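Zinc finger genes are mostly long, and 15 of this name were short enough. Of these, 8 held a member peak (53.3%, Wilson interval 30.1 to 75.2%), at a low median of 14 reads and a fold of 5.30. ZNF703, a transcriptional cofactor of luminal epithelium, was the deepest at 95 reads in 1690 bases, followed by ZNF524 (22), ZNF579 (17) and ZNF414 (14). Proteasome genes held one in 5 of 9 cases (55.6%, 26.7 to 81.1%), with 71 reads in PSMB4 at a fold of 14.2, 27 in PSMC5 and 24 in the assembly factor PSMG3. The activator subunit PSME1 held 2 peaks of up to 13 reads, while PSME2, PSMB11 and the immune subunits PSMB8 and PSMB10 held none. Among chemokines, 4 of 19 short genes held a peak (21.1%, 8.51 to 43.3%), near the 24.4% of all short genes: CXCL1 with 23 reads, CXCL2 with 19, CXCL3 with 10 and CXCL8 with 9. Of 7 chaperone genes 4 held a peak: besides HSPA8 these were HSPB1 (71 reads, fold 15.2), PFDN5 (38) and HSPA6 (11), while the near-identical HSPA1A and HSPA1B held none.

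By number of peaks, chromosome 19 came first, with 121 peaks in 64 of 210 short genes (30.5%). By the share of short genes with a peak, chromosome 22 came first, with 15 of 43 (34.9%), followed by chromosomes 9 (32.8%), 16 (31.7%) and 4 (30.9%). Chromosome 6, which carries most histone genes, had 51 of 168 genes with a peak (30.4%) but 60 peaks. Chromosomes 13 and 18 had 1 member each, of 16 and 14 short genes. On chromosome 11, where many olfactory receptors lie, 49 of 265 short genes held a peak (18.5%), and on the X chromosome 24 of 169 (14.2%).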
